A study of Mus musculus with 10 samples.

Results

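In mouse microglia, 397 genes without a called mark of active promoters had a start in a chromatin contact. They were the autosomal protein-coding genes with no peak of trimethylated histone H3 lysine 4 (H3K4me3) within 1 kb of any transcription start site (TSS) in either H3K4me3 list, but with a TSS inside a 5 kb bin at an end of a called contact. They made up 397 of 7817 such unmarked genes (5.08%, exact 95% interval 4.60 to 5.59) and of 20720 autosomal protein-coding genes in all. Both criteria were readings of these data, so the lack of a near peak and the presence of a contact describe how the genes were chosen and are not results.

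The libraries came from microglia sorted from brains of wild-type C57/Bl6 mice (C57BL/6J in the study's methods) by CD45, CD11b and CX3CR1 (males of 8 to 12 weeks, per the study's methods), in a study of an enhancer of Sall1, and no group with another genotype was used here. H3K4me3 was measured by ChIP-seq in 2 libraries with a peak list each. Contacts were measured by PLAC-seq, which joins proximity ligation with H3K4me3 immunoprecipitation, in 2 libraries that the authors combined in 1 list of 26689 contacts. The contacts therefore had no replicate error, and intervals below cover counting error only. The labels do not say whether the 2 ChIP-seq libraries came from separate animals, so differences between them may be technical. The lists held 27845 and 26574 peaks at depths of 12.8 and 13.5 M tags, and a peak's value is its tags per 10 M mapped tags. All 13 autosomal microglia markers examined had a peak in both lists, against 3 of 6 neuronal, 2 of 4 astrocyte, 1 of 3 oligodendrocyte, 2 of 5 endothelial and mural, 1 of 4 border macrophage and 0 of 6 other leukocyte markers.

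H3K4me3 is laid down at the starts of active or poised genes, most strongly where CpG dinucleotides are dense and unmethylated. Many tissue-restricted promoters are poor in CpG and carry the mark only in cells that use the gene. Because PLAC-seq enriches for ligation products with H3K4me3 chromatin at an end, a bin without the mark enters the list mostly through a marked partner, as distal enhancers do.

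The promoters below show the letters at starts of unmarked genes beside those of marked genes in their partner bins. They are RefSeq sequences on GRCm38.p6, from 250 bases upstream to 50 downstream of a start, written 5′ to 3′ on the gene's strand with each CG in capitals. The 4 pairs are an unmarked gene followed by its marked partner. Gp1ba, Il3 and Apoc2 follow as further unmarked genes with a marked partner.
Lpin3 (chr2:160887918-160888217, plus strand): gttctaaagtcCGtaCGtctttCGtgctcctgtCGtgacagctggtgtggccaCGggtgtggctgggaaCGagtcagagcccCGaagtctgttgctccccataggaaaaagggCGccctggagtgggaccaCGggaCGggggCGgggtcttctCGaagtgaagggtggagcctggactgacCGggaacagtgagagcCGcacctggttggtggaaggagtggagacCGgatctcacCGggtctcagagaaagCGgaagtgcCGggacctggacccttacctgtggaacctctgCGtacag
Plcg1 (chr2:160731060-160731359, plus strand): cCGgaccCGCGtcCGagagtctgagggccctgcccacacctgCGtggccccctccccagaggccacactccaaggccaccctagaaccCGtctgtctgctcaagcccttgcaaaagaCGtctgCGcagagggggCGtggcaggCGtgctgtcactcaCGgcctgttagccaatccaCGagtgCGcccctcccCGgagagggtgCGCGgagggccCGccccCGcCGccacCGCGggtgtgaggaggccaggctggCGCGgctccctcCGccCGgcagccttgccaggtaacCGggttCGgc
Kcnk13 (chr12:99964249-99964548, plus strand): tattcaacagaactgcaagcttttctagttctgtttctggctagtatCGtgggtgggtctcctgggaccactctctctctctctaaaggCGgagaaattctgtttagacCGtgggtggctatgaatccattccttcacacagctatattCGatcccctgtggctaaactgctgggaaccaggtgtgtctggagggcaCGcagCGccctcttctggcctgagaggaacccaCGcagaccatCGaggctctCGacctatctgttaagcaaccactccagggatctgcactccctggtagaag
Psmc1 (chr12:100109952-100110251, plus strand): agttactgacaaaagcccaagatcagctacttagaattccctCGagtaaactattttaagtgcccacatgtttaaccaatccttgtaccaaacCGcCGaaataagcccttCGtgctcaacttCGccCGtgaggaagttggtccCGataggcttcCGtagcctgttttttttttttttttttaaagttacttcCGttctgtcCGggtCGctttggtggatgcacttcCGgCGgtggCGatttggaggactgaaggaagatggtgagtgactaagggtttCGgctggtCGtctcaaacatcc
Fcrlb (chr1:170912892-170913191, minus strand): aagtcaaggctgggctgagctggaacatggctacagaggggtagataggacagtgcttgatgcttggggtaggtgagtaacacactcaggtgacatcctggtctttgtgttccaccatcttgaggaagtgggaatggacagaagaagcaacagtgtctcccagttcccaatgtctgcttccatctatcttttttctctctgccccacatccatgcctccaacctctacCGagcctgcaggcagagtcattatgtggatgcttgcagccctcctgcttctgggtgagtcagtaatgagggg
Fcgr2b (chr1:170976022-170976321, minus strand): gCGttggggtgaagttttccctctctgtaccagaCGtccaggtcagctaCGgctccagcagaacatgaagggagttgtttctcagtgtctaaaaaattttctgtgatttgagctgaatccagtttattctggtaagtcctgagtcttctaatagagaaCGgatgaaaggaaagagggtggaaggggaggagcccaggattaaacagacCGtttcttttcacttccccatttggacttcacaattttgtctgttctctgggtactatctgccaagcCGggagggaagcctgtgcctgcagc
Ifi47 (chr11:49076337-49076636, plus strand): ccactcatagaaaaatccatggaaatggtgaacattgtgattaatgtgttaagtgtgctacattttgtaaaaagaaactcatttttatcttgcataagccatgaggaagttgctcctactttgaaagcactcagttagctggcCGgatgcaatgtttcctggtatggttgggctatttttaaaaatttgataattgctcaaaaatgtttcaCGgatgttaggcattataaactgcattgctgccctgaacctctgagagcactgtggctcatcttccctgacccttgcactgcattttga
Irgm1 (chr11:48871371-48871670, minus strand): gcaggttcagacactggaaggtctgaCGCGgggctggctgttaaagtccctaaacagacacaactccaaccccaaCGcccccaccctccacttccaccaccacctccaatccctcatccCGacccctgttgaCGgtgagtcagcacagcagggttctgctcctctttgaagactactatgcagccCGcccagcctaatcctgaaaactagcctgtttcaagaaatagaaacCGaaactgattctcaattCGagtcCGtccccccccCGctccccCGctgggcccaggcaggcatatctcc
Gp1ba (chr11:70638872-70639171, plus strand): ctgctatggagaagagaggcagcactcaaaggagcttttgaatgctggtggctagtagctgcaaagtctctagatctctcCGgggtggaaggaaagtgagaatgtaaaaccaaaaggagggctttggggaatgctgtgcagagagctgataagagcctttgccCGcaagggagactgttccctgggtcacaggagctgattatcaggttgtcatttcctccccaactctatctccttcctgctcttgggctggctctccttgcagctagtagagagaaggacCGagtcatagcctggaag
Il3 (chr11:54267230-54267529, minus strand): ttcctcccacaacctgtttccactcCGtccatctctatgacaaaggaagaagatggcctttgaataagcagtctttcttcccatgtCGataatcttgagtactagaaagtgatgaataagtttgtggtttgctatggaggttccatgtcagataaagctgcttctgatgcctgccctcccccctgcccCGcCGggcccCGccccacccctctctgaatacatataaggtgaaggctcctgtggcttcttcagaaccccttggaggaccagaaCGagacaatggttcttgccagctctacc
Apoc2 (chr7:19677892-19678191, minus strand): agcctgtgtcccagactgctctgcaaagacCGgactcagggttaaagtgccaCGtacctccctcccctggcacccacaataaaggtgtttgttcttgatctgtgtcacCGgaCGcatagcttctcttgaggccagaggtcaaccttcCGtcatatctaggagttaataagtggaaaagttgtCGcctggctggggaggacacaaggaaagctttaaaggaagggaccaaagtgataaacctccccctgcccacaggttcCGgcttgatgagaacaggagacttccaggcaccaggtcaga

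In each of these pairs the unmarked gene had both fewer CG dinucleotides and a lower ratio of observed to expected CG. For Lpin3, a phosphatidate phosphatase gene, the ratios were nearly equal. Its window held 19 with a ratio of 0.694, against 27 and 0.700 in Plcg1, which encodes a phospholipase C. This start of Lpin3 was thus CpG-dense, whereas the Lpin3 start used for the class values below had a ratio of 0.321. The window of Kcnk13, a potassium channel gene, held 9 (ratio 0.434), against 16 (0.966) in that of the proteasome gene Psmc1. Fcrlb, an Fc receptor-like gene, had 1 (0.0495), against 6 (0.353) in Fcgr2b, the inhibitory Fc receptor for IgG. Ifi47 and Irgm1 both encode interferon-inducible GTPases and Ifi47 had 2 (0.173), against 11 (0.499) in Irgm1. The Gp1ba window held 3, that of Il3 6 and that of Apoc2 7.

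Across the whole class the promoters were poor in CpG. In 300 bases around 1 TSS per gene, the ratio of observed to expected CpG had a median of 0.208 in the 397 unmarked genes with a contact, against 0.183 in 7420 unmarked genes without one and 0.767 in 4648 marked genes with one. With olfactory, vomeronasal and taste receptor genes left out, unmarked genes without a contact had a median of 0.214. A ratio of at least 0.6 was found in 28 of 397 unmarked genes with a contact (7.05%, exact 95% interval 4.74 to 10.0), against 7.41% of those without and 73.9% of marked genes with a contact. Thus the 2 unmarked classes lay close together and apart from the marked class in this measure. The median share of G and C was 53.3% in the unmarked genes with a contact, 47.3% in those without and 61.3% in the marked genes. The letters TATAAA, on either strand, occurred in 13.9% of windows of unmarked genes with a contact, 22.5% of unmarked genes without and 6.78% of marked genes with a contact, and in 12.6% over all autosomal protein-coding genes. The letters GAGGAAGT, a form of the site bound by the macrophage factor PU.1, occurred on either strand in 3.27%, 3.95% and 3.33% of the same 3 classes, and in 3.26% of all. A match of letters is a description and shows no binding.

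**Figure D1:**
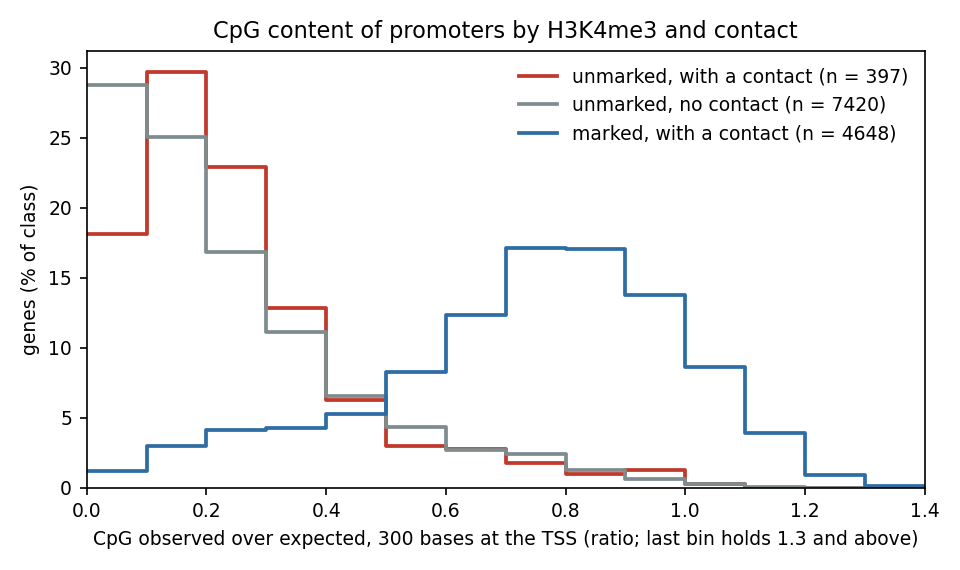
Share of genes in each class (y axis, percent) by the ratio of observed to expected CpG in the 300 bases around a TSS (x axis, steps of 0.1). The lines of unmarked genes with a contact (red, median 0.208) and without one (grey, 0.183) lie at low ratios, while that of marked genes with a contact (blue) has its median at 0.767.

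Some unmarked genes with a contact nevertheless had dense CpG. Among them were Hoxb8 at 0.970 and Hoxc8 at 0.940, both homeobox genes that set position along the body axis. Slc45a1, a sugar transporter gene, stood at 0.704 and Qrich2 at 0.806. The thymic regulator Aire at 0.706 and the ligand gene Wnt1 at 0.699 were picked after their values were seen. By the rule, all were without a near peak.

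A TSS in a contact bin was rarer among unmarked genes than among marked ones, by counts that the rule and the assay fix in part. The share was 5.08% of unmarked genes, against 37.8% of 12304 genes marked in both lists and 24.7% of all autosomal protein-coding genes. A further 599 genes had a peak in 1 list only and entered neither class, and 77 of them had a contact. The 397 unmarked genes took part in 777 contacts through 415 bins. They had a median of 1 contact, a mean of 2.02 and at most 17, against a median of 2, a mean of 3.58 and at most 38 in the 4648 marked genes with contacts. A single contact was found for 231 of them (58.2%), at least 3 for 79 (19.9%) and at least 5 for 34 (8.56%). For 368 (92.7%) the most upstream annotated TSS lay in a contact bin, and for 29 only another TSS did. Bins were shared by 19 of the 397 genes, so that these counted the same contacts.

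The genes lay on all 19 autosomes. Chromosome 7 held 58 of them out of 1022 unmarked genes (5.68%) and chromosome 11 held 47 of 512 (9.18%). The lowest share was on chromosome 14, with 10 of 432 (2.31%).

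The class held genes at several distances from H3K4me3. The nearest peak lay at a median of 7.84 kb in replicate 1 and 8.25 kb in replicate 2, against 71.1 and 76.4 kb for unmarked genes without a contact. Either list had a peak no farther than 5 kb from a start for 159 of 397 genes (40.1%), against 6.87% of 7420 unmarked genes without a contact. Since PLAC-seq enriches for H3K4me3 chromatin, the rule and the assay fix these differences in part. The bins of 92 genes (23.2%) held a peak in at least 1 list, more than 1 kb from the starts, and in 305 (76.8%, exact 95% interval 72.4 to 80.9) none of the contact bins held a peak. For 35 genes (8.82%) the bin also held a TSS of a gene marked in both lists, and there the contact cannot be assigned to either gene. The authors' own flag called the bins of 105 genes H3K4me3-positive, 21 of them without a peak in the deposited lists. A TSS inside the body of a marked gene was found for 51 genes (12.8%), and for 7 a partner bin held the start of that surrounding gene.

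Genes at the edge of the 1 kb limit showed what the rule takes in. Fkbp10 had its nearest peak 1026 bp away, with values of 120.8 and 117.1, Stpg1 also at 1026 bp with 244.6 and 243.2, and Tap2, a peptide transporter gene of antigen presentation, at 1027 bp with 276.6 and 297.6. Just inside, Gm10964 had a peak at 992 bp, Col14a1 at 988 bp and Ccin at 982 bp in the nearer list. In all, 53 genes had a peak between 1 and 2 kb away, and in 25 of these the nearest peak had a value of at least 100 in both lists. Smug1, a DNA repair gene picked after its values were seen, was one of them at 1069 bp with 175.3 and 164.1, and with Galntl6 it had the most contacts, 17. Both had a peak in a contact bin.

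The contacts divided by where the peaks lay. Of 777, the partner bin alone held a peak in 400 (51.5%), the gene's own bin alone in 211 (27.2%), both in 92 (11.8%) and neither in 74 (9.52%). At least 1 partner bin with peaks in both lists was found for 312 of 397 genes (78.6%, exact 95% interval 74.2 to 82.5). Since H3K4me3 peaks guided the calling of contacts, the calling fixes this share in part. A partner bin held a TSS of a gene marked in both lists for 228 (57.4%, 52.4 to 62.3). These were 295 different marked genes, and 64 unmarked genes (16.1%) had at least 2 of them. For 28 genes (7.05%) no contact had a deposited peak at either end. The authors' own flag, however, called at least 1 end of each of the 777 contacts H3K4me3-positive, and the partner bin in 532 (68.5%).

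A gene's bin without a peak was joined to a bin with peaks in both lists in 374 contacts, which involved 266 genes and 329 partner bins. These were 1.99% of 18811 contacts between a bin marked in both lists and a bin with no peak, whereas in 87.8% the unmarked bin held no TSS of a protein-coding gene. The 374 spanned a median of 100 kb (quartiles 55 and 160 kb), against 130 kb (65 and 235 kb) for the 16521 contacts whose unmarked bin had no coding TSS. Their read pairs over expected had a median of 3.75 (95% interval of the median 3.55 to 3.93), against 4.15 (4.12 to 4.18), with a median of 19 read pairs against 16. Since the ratio climbed with distance in both sets, the values were also set side by side within bands. From 10 to 40 kb the median ratio was 2.36 in 64 contacts of unmarked genes, against 2.44 in contacts of bins without a coding TSS. From 45 to 100 kb it was 3.39 in 124 contacts, against 3.43. From 105 to 200 kb it was 4.16 in 128 contacts, against 4.31. From 205 to 500 kb it was 4.96 in 55 contacts, against 5.30. Within these bands the medians of both sets lay inside each other's quartiles, and 3 contacts of unmarked genes exceeded 500 kb.

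**Figure D2:**
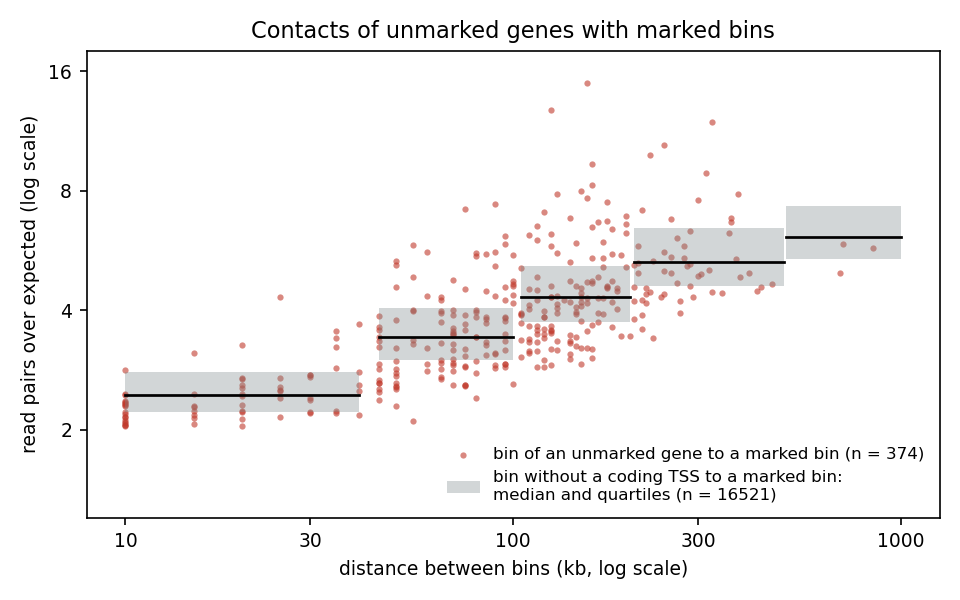
Read pairs over expected (y axis, log scale) by distance between bins (x axis, kb, log scale) for 374 contacts of an unmarked gene's bin with a bin marked in both lists (red points). Black lines and grey boxes give the median and quartiles in each distance band for 16521 contacts of marked bins with bins that hold no coding TSS. From 205 to 500 kb, for example, the median is 4.96 for the red points, against 5.30.

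Most of these contacts passed over other marked genes. Of the 374 contacts, 287 (76.7%, exact 95% interval 72.1 to 80.9) had between their bins at least 1 start of a marked gene, with a median of 1 and a maximum of 16 marked genes. For 184 of 266 genes (69.2%) every such contact did so. No such share is given here for other contacts, so these values are not shown to be particular to unmarked genes. The contact was the strongest of its partner bin in 112 of 374 (29.9%), and the partner bins had a median of 4 contacts, up to 27.

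The partner bins ranged from faint to full promoter marking. Over all 329, the tallest peak had a median of 156.6 in replicate 1 and 149.2 in replicate 2. In the 211 with a start of a marked protein-coding gene the medians were 210.3 and 213.3, close to the 227.5 and 238.7 of all marked genes with a contact. In the other 118 they were 29.95 and 30.55, and here 61 tallest peaks were intergenic, 33 intronic and 24 exonic, with a start of a long noncoding RNA in 12 of the bins. Promoters of the marked partner genes had a median CpG ratio of 0.694.

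**Figure D3:**
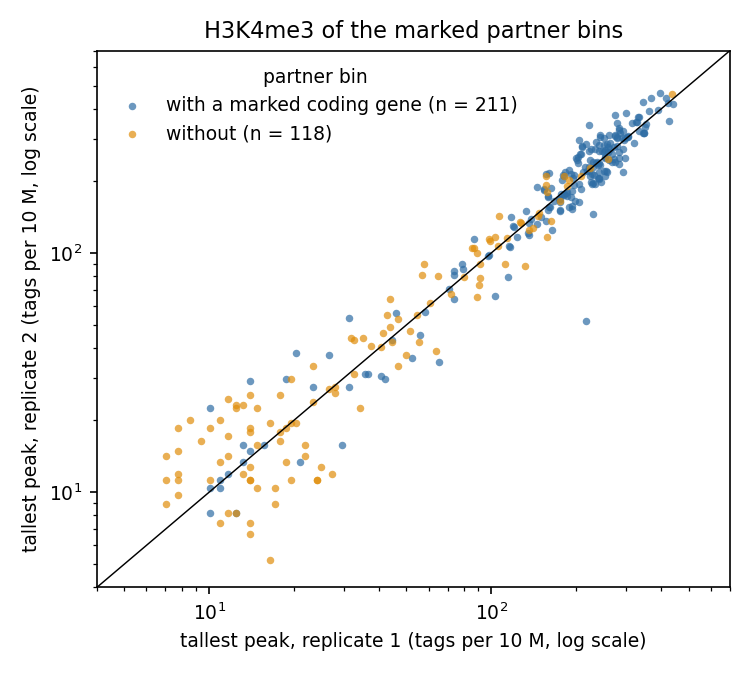
Value of the tallest H3K4me3 peak in replicate 2 (y axis) against replicate 1 (x axis), both in tags per 10 M on log scales, for 329 partner bins, with the line of equal values. Bins with a marked protein-coding gene (blue, n = 211) crowd at high values around medians of 210.3 and 213.3, and those without (orange, n = 118) spread lower around 29.95 and 30.55.

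Ninj2, an adhesion protein gene at chr6:120093350-120200339, had the contact furthest above expectation among genes with an unmarked bin, a marked partner and at least 20 read pairs. It had 39 read pairs against 2.61 expected, a ratio of 14.9, over 155 kb to the start of Wnk1, a kinase gene of ion transport, whose bin had values of 282.8 and 263.3. This contact began at a start near the far end of Ninj2, in the bin from 120190001, and not at its most upstream TSS. The bin of that upstream TSS had 1 contact, over 50 kb with a ratio of 3.33, and its partner held no peak. From the downstream start, further contacts reached bins at 150 kb with a ratio of 11.0, at 160 kb with 9.34 and at 710 kb with 5.87.

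The olfactory receptor gene Olfr554 came next, with 39 read pairs against 3.06 expected over 125 kb (12.7), but its partner was an intergenic bin with values of 17.9 and 16.4. The same bin was reached by its neighbour Olfr555 at a ratio of 3.97. Teddm1a had 23 read pairs over 225 kb (9.85) to an intergenic bin with 51.4 and 47.0. Asgr1, a subunit gene of the liver asialoglycoprotein receptor, had 28 over 160 kb (8.27) to the start of the transporter gene Slc16a11, which was marked faintly at 10.1 and 8.21. Its second contact, over 170 kb (5.93), reached Slc16a13 at 222.0 and 343.1. Qrich2 had 28 over 150 kb (7.99), to an intergenic bin with 71.7 and 67.1. The partners of these genes thus included faint and intergenic peaks as well as strong promoters.

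Lpin3, at chr2:160880670-160906002, contacted the start of Plcg1, with 21 read pairs against 2.74 expected over 155 kb (7.65) from the bin that holds the start printed above. A neighbouring bin with another Lpin3 start reached it over 150 kb at 3.76. The Plcg1 bin had values of 345.1 and 428.9 and only these 2 contacts. Ryr1, the calcium release channel gene of skeletal muscle, contacted Dpf1 over 175 kb (7.48), Ppp1r14a over 160 kb (4.73) and Spint2 over 155 kb (3.21), all weakly marked, with values between 18.7 and 37.3. Between 7 and 9 marked genes lay between Ryr1 and these partners. Ifitm2, an interferon-induced membrane protein gene, and the gene model Gm45717 have starts in the same bin and shared a contact of 38 read pairs over 90 kb (7.39) to an intergenic bin with 7.79 and 9.7.

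Interferon-inducible Ifi47 contacted Irgm1 from both of its bins. The upstream bin, whose promoter is printed above, had 13 read pairs over 205 kb (3.81) and the other 21 over 215 kb (7.17), to a start with values of 161.3 and 155.9. A contact bin of Ifi47 also held a start of Olfr56, a gene marked in both lists whose body surrounds an Ifi47 start. That bin held no peak, and its contacts cannot be assigned to either gene. Dnmt3l, a cofactor gene of germline DNA methylation, had 7 contacts from 3 bins, of which 3 reached the start of D10Jhu81e (222.8 and 229.0) at ratios of 7.08, 5.79 and 4.02. Another 3 reached an intergenic bin with 16.4 and 5.22. Ston2 contacted Gtf2a1, a general transcription factor gene, over 195 kb (6.26).

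A run of unmarked genes on chromosome 11 shared partners. Tm4sf5 had 43 read pairs over 75 kb (7.19) with Arrb2, a beta-arrestin gene marked at 426.2 and 355.1. It also contacted the Mediator gene Med11 over 55 kb (4.84) and Pelp1 over 95 kb (3.48). Gltpd2, in the next bin but one, contacted Arrb2 over 85 kb (3.71), Pelp1 over 105 kb (5.10) and Zfp3 over 245 kb (5.60). Gp1ba, the gene of a platelet receptor subunit for von Willebrand factor, lay at chr11:70639122-70642036 and contacted Arrb2 over 205 kb (5.21), Med11 over 185 kb (4.02) and Zfp3 over 125 kb (6.22). Its further marked partners were Psmb6, Camta2, Inca1, Kif1c and Zmynd15, which made 8 different genes through 7 of its 8 contacts, the other partner bin holding no marked gene. Zmynd15 counted as a marked gene, but the partner bin with its start did not itself hold peaks in both lists. The Gp1ba bin held no peak, and its nearest one, 7678 and 7666 bp away in replicates 1 and 2, had values of 248.5 and 246.9. These genes share partner bins and are not separate instances of a pattern.

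On the same chromosome Tmem95 contacted starts in 5 bins, those of Plscr3, Tmem256 with Nlgn2, Polr2a, Tnfsf12 and Senp3, over 30 to 195 kb. The farthest, Senp3, had the highest ratio, 6.59, and lay beyond 9 other marked genes. Pdzd3 on chromosome 9 contacted Nlrx1, Vps11 and Slc37a4 over 15 to 145 kb, with ratios from 2.18 to 3.42. Cks1brt reached a bin with Man2b1, Wdr83 and Wdr83os over 90 kb (5.59) and Fbxw9 over 110 kb (3.32). Rcn3 and Car14 reached their marked genes within 45 kb, at ratios of 3.35 or less. The longest contacts of at least 20 read pairs from an unmarked to a marked bin were those of Wfdc21 with Taf15 (275 kb, 5.79), Teddm1a (225 kb), Ifi47 (215 kb), Mmel1 with Pex10 (195 kb, 6.89), Cdrt4 with Pmp22 (180 kb, 6.41) and Ryr1 (175 kb).

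**Figure D4:**
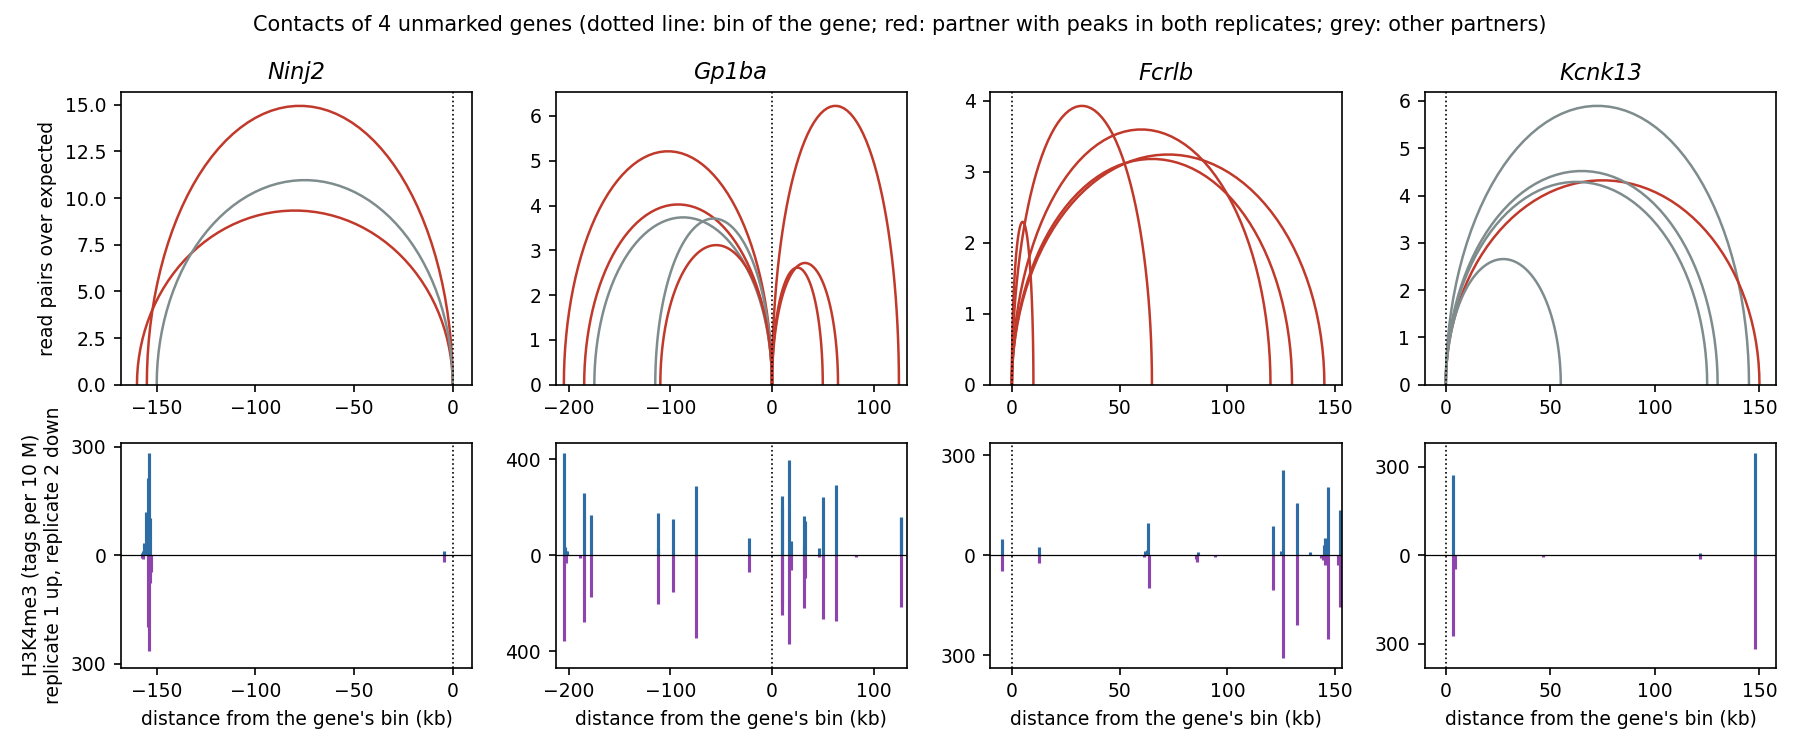
Contacts up to 300 kb from 1 bin of each of Ninj2, Gp1ba, Fcrlb and Kcnk13 (top; arcs join the gene's bin at 0 with the partner, arc height is read pairs over expected, red for partners with peaks in both lists) and H3K4me3 peaks there (bottom; tags per 10 M, replicate 1 up and replicate 2 down), by distance in kb. The tallest arc of Ninj2, at 155 kb, ends at the bin of Wnk1 and the other arcs end in the bins beside it, while Gp1ba has arcs to both sides over other tall peaks, and Kcnk13 has a tall peak beside its bin.

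Genes of microglial and immune function were described from lists of gene names. Of the microglia signature genes named by the study, chosen there on RNA levels, 53 were unmarked and 9 of these (17.0%, exact 95% interval 8.07 to 29.8) had a contact, beside the background of 5.08%. Of these 9, 5 were still in the class with a window of 5 kb and 5 with the starts of all annotated transcripts. Under those settings a gene left because a peak then counted as near a start, not because a contact was lost. With at least 20 read pairs 5 of the 9 stayed. There were 4 at the false discovery rate limit of 0.0001 and 3 with 1 contact per cluster. In the same order, the whole class kept 238, 348, 209, 198 and 156 of its genes. The 9 signature genes included B3galt5, Ccdc162, Cdh23, Ermap, Gfap, Mobp, Myl2 and Tmigd3. Mobp, a myelin gene, had 16 read pairs over 210 kb (4.96) with a bin holding starts of Gorasp1 and Ttc21a (191.7 and 214.1), whose tallest peak lay within Gorasp1 and Cx3cr1. Gfap, the intermediate filament gene of astrocytes, had 32 over 95 kb (5.86) with an intergenic bin at 26.5 and 26.9. In Tmigd3, Ccdc162 and Myl2 a contact bin held a peak in at least 1 list, with values of 14.8, of 8.57 to 10.4 and of 14.0 and 21.6. Tmigd3 contacted Ddx20 over 225 kb (5.67) and Inka2 over 205 kb (5.62), and Ccdc162 contacted Cd164 and a bin with Ppil6 and Smpd2. A contact bin of Tmigd3 also held a start of the marked gene Adora3, whose body surrounds a Tmigd3 start. Contacts from that bin cannot be assigned to either gene. Ermap and Cdh23 reached no partner with peaks in both lists. For Ermap the authors' own flag called a contact bin H3K4me3-positive, although it held no deposited peak. For Cdh23 that flag called the partner bin H3K4me3-positive.

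Several cytokine genes had a contact. Il1b, the inflammatory cytokine gene, had 11 read pairs against 3.05 expected over 60 kb (3.61) to an intergenic bin, and neither end held a deposited peak. The authors' own flag called that intergenic bin H3K4me3-positive. Csf3, which encodes granulocyte colony-stimulating factor, had 25 over 85 kb (5.55) to an intergenic bin with 80.2 and 79.1. Il3, a growth factor gene of blood cells, had 14 over 285 kb (6.33) to the start of Slc22a21 (180.7 and 176.0), which had no other contact. Il31 had 16 over 140 kb (3.09) to Bcl7a (247.0 and 265.5). Cxcl9 contacted the start of Cxcl10, a chemokine gene beside it, over 20 kb (2.46), where values were 21.0 and 13.4. The stronger contact of Cxcl9, of 19 read pairs over 50 kb (2.85), reached another bin with peaks in both lists. Of unmarked interleukin genes 3 of 26 had a contact (11.5%), of chemokine genes 1 of 26 (3.85%) and of inflammatory response genes 2 of 10 (20%), each with an interval that spans the background of 5.08%.

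Receptor genes of myeloid cells also appeared. Fcrlb, at chr1:170907273-170912941, contacted Fcgr2b with 36 read pairs over 65 kb (3.93; partner 97.4 and 97.0) and Fcgr3, an activating Fc receptor gene, with 15 over 145 kb (3.24; 203.3 and 251.4). Its other 3 contacts went to peaks outside coding starts, so all 5 ended at bins with peaks in both lists. Clec4a1, Cd300c and Cd300e reached faint peaks found in replicate 2 only, at 10.4 for Clec4a1 and 8.21 for both Cd300 genes, which shared a partner bin. Siglecf had a partner without a peak, which the authors' own flag called H3K4me3-positive. Clec12b contacted Gabarapl1 over 145 kb (4.07; 233.7 and 194.7), and Ms4a10 contacted Vps37c over 285 kb (5.24; 292.9 and 323.0). The shares with a contact were 3 of 54 unmarked C-type lectin genes, 2 of 16 Ms4a genes and 3 of 22 Cd300, Siglec, Lilr and Pilr genes, with exact 95% intervals of 1.16 to 15.4%, 1.55 to 38.3% and 2.91 to 34.9% that all span the 5.08% of all unmarked genes.

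Apoc2, an apolipoprotein gene of lipid transport, contacted Apoe from both of its bins, with 41 read pairs over 20 kb (2.22) and 24 over 25 kb (2.69). The partner bin of Apoe had values of 14.0 and 14.9. Among markers of other cells, the endothelial cadherin gene Cdh5 had 10 read pairs over 240 kb (4.31) with Cmtm3 (153.5 and 184.2), which was the strongest contact of that bin. Plac8, a leukocyte gene, had 8 contacts, but its bin held a peak at 145.7 and 121.6, 1705 bp from its start, and no partner was marked. No unmarked gene with a contact was found among 8 unmarked neuronal markers, 7 border macrophage markers or 14 developmental regulators, which allows shares of up to 36.9%, 41.0% and 23.2% (upper exact 95% limits).

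Kcnk13, at chr12:99964499-100062682, encodes a potassium channel known from microglia. Its start lay 1364 and 1293 bp from a peak with values of 271.1 and 273.8 in the neighbouring bin, so that it counted as unmarked only by the 1 kb limit. It had 7 contacts, of which 1 reached a bin with peaks in both lists, that of Psmc1 over 150 kb (4.32; 346.7 and 317.8). The others went to bins without a peak, 2 of them at 875 and 885 kb with ratios of 7.80 and 8.54. The authors' own flag called a contact bin of Kcnk13 H3K4me3-positive, although it held no deposited peak. Of unmarked ion channel genes, 6 of 68 (8.82%, exact 95% interval 3.31 to 18.2) had a contact, and of solute carrier genes 10 of 141 (7.09%, 3.45 to 12.7), beside 5.08% of all unmarked genes, which both intervals span. Kcne2 contacted the start of the ATP synthase gene Atp5o over 365 kb (6.84) and over 360 kb (6.25). Slc45a1 contacted Park7 over 255 kb (6.78; 285.1 and 316.3).

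Developmental transcription factor genes had peaks at either end of their contacts. Of unmarked homeobox genes 6 of 48 (12.5%, exact 95% interval 4.73 to 25.2, which spans 5.08%) had one. Hoxb8 had a peak of 17.1 and 29.8 in its bin, 1646 bp off in replicate 1, and 5 of its 7 contacts went to unmarked bins within Skap1, the strongest over 270 kb (7.14). Dlx1, with a peak of 37.4 and 58.2 in its bin, likewise had 5 contacts with unmarked bins, the strongest over 295 kb within the integrin gene Itga6 (7.06). Hoxc8 and Hoxc6, in contrast, had no peak in their contact bins. Hoxc8 reached a peak within Smug1 (175.3 and 164.1) over 170 kb (3.92), and both reached an intergenic bin with 14.0 and 12.7. Tbx6 contacted Ppp4c and Aldoa, at 10 and 15 kb.

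Sensory receptor genes were seldom among them. Only 8 of 1456 unmarked olfactory, vomeronasal and taste receptor genes had a contact (0.549%, exact 95% interval 0.238 to 1.08), beside 5.08% overall. Besides Olfr554 and Olfr555 these included Olfr71, which contacted Npr2 over 80 kb (3.83; 31.2 and 27.6). Keratin and keratin-associated genes had 2 of 108 (1.85%, exact 95% interval 0.225 to 6.53), serpins and cystatins 0 of 62 (up to 5.78%) and cytochrome P450 genes 2 of 74 (2.70%, 0.329 to 9.42), all with intervals that span 5.08%. Of numbered gene models 43 of 1273 (3.38%) had a contact, the strongest being C130026I21Rik with Sp110 (325 kb, 13 read pairs against 1.09 expected, 11.9) and Gm10203 (245 kb, 10.4). In all, 111 of 397 genes (28.0%) were on a list or in a family.

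**Figure D5:**
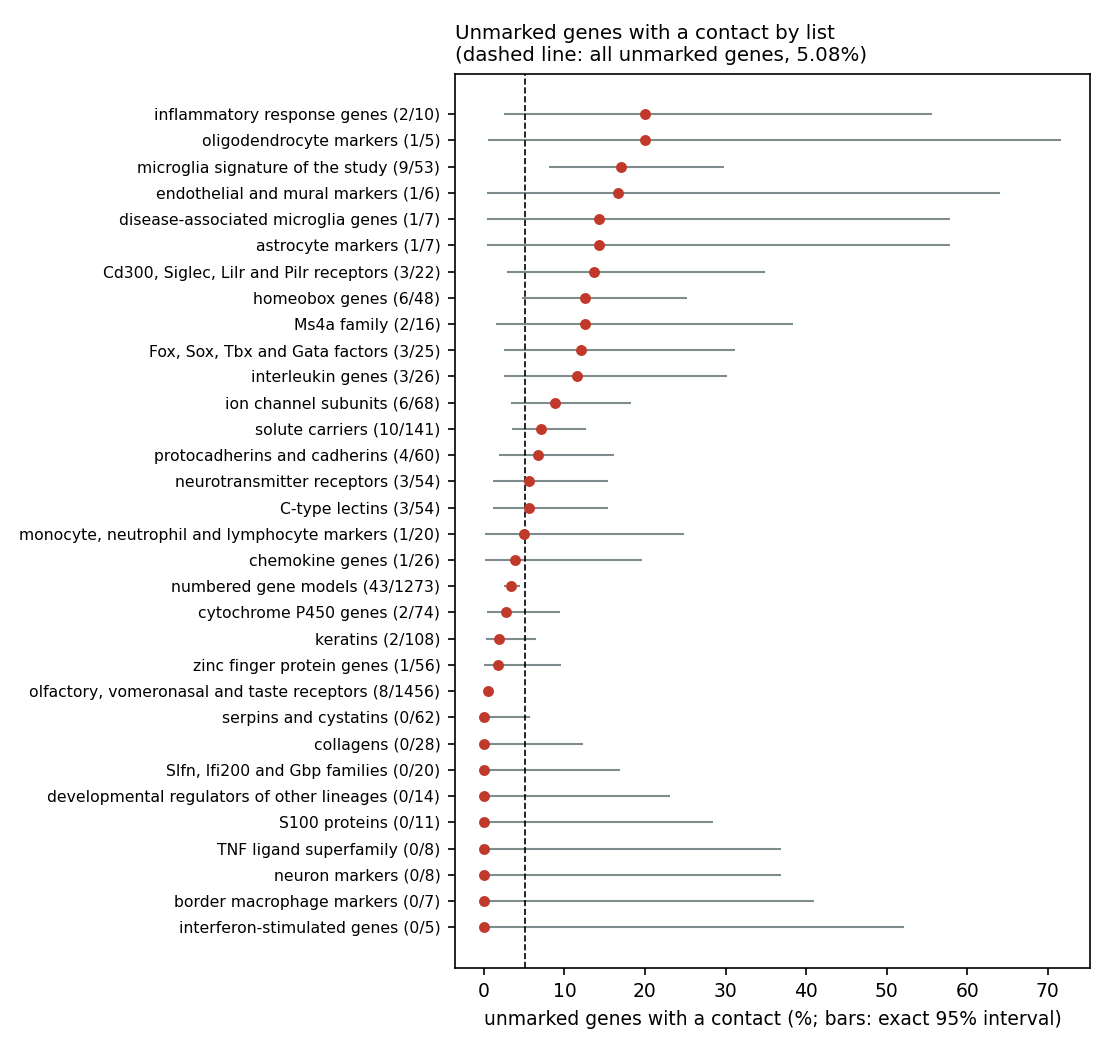
Share of unmarked genes with a contact (x axis, percent) for each list or family with at least 5 unmarked genes (y axis, with numbers), as points with exact 95% intervals, and the share over all unmarked genes as a dashed line at 5.08%. The interval of the microglia signature (17.0%, 9 genes, of which 3 to 5 stay under the settings named in the text) lies above the line and those of numbered gene models (3.38%) and of olfactory, vomeronasal and taste receptors (0.549%) below it, while the others span it.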

How the data were processed

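H3K4me3 ChIP-seq and PLAC-seq of wild-type microglia were used, 2 libraries each. Input entered only through the peak lists, and Hi-C was not analysed here. The submitters' processing notes name Bowtie2, HOMER and mm10, and 1 peak list per library was deposited. Each peak had a signal deposited by the authors (tags per 10 M, used here as its value), a tag count, input signal, a ratio over input, a p-value, the fraction of tags on the side expected for a sharp peak and a score. Library depth was computed from tag counts divided by values. The authors called contacts with MAPS between 5 kb bins on both PLAC-seq libraries combined and deposited a read pair count, an expected signal, a false discovery rate (an adjusted p-value) and a cluster −log10 p-value, the last not used here. Peaks that guided the calling may differ from the deposited lists. Bins that no listed contact joins are not shown to lack one, and PLAC-seq depth is unknown here.

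TSSs of protein-coding transcripts came from GENCODE M21 basic. Genes with a peak no more than 1 kb from any TSS counted as marked. Promoter letters for the CpG and motif counts were read from GRCm38.p6 for every gene, and the printed sequences from RefSeq, which matched 291 of the 397 genes by symbol. Python 3.11.15, pandas 2.3.3 and scipy 1.17.1 gave exact Clopper-Pearson intervals and order-statistic intervals of medians, and the selection was checked on simulated data. No test was run, since the genes were chosen on these values and contacts have no replicates. The genes and lists were chosen with earlier results of these data known. Genes were named by rule: the 12 strongest, the 12 with most contacts, the 8 with most marked partner genes, the 6 longest, list members, up to 4 per family (2 gene models) and 3 on each side of the limit. Alternatives changed the TSS window, replicates, transcripts, false discovery rate, read pairs, clusters and the conditions on bins. Results for some of the genes that the rule names are not reported here.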

Additional observations from a re-analysis of the deposited data

How the results depend on the processing

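The number of genes was 487 with a window of 500 bp, 344 with 2 kb and 238 with 5 kb, 446 and 425 without replicate 1 or replicate 2, and 418 with the starts of all annotated transcripts, of which 348 were shared with the 397. It was 198 with false discovery rates limited to 0.0001, 209 with at least 20 read pairs, 156 with 1 contact per cluster, 311 without any peak in the bin and 312 with a partner bin marked in both lists. The genes thus depend most on the window and on how many contacts are kept. Of 34 named genes followed under each alternative, 23 stayed with a window of 5 kb, 24 at the stricter rate, 28 with at least 20 read pairs and 20 with 1 contact per cluster; Fcrlb, Apoc2, Gfap and Cdh5 left at 5 kb.

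The share of genes whose own bins held no peak was 64.1% with a window of 500 bp, 85.2% with 2 kb, 100% with 5 kb (by construction), 70.7% at the stricter rate, 72.2% with at least 20 read pairs, 68.6% with 1 contact per cluster and 84.3% with a marked partner. The share with a partner bin marked in both lists was 71.7%, 82.8% and 87.4% with windows of 500 bp, 2 kb and 5 kb, 72.2% at the stricter rate, 62.8% with 1 contact per cluster and 85.5% with no peak in the bin. The share with a marked gene in a partner bin was 51.7% with 500 bp, 62.6% with 5 kb, 65.8% with all transcripts, 49.5% at the stricter rate, 40.4% with 1 contact per cluster and 71.8% with a marked partner. The share with a start inside a marked gene was 7.69% with 1 contact per cluster. The median distance was 50 kb with at least 20 read pairs and 82.5 kb with 1 contact per cluster. The median ratio was 3.94 with 5 kb, 4.74 at the stricter rate, 2.89 with at least 20 read pairs and 3.97 with 1 contact per cluster, where the median CpG ratio was 0.189. The cause of these shifts was not tested. Without replicate 1 or 2 these shares and medians moved within their intervals, and the median of 1 contact per gene held under every alternative. No paired analysis was possible because both PLAC-seq libraries are combined in 1 list and no groups were compared. Low read pair counts, with a minimum of 7 in the list, limit single contacts.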
